A study of Mus musculus with 4 samples.

Results

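Tnfsf8, Tnfsf13 and Tnfsf13b encode ligands of the tumor necrosis factor (TNF) superfamily, and their reads were examined in single cells from the brains of 5XFAD mice with and without Abi3. The 3 genes were chosen by name from the 397 genes of a targeted immune panel. Cells were kept by their depth (40 or more genes with a read, and no more reads than the upper limit of the study's methods), which left 13820 of 21172 cells, and microglia were chosen from clusters by a read of Trem2, which left 12648 cells. Reads of Apoe and Cst7 then divided these microglia into states, so the levels of Trem2, Apoe and Cst7 are not results here. The cells came from the right hemisphere, without cerebellum or olfactory bulb, of 4 male mice aged 9 months that all carried the 5XFAD transgenes, which drive amyloid deposition from neurons. Mice 1 and 2 of the Abi3+/+ group had intact Abi3, and mice 1 and 2 of the Abi3-/- group lacked it in every cell, so that the loss was not restricted to microglia. The study also reports lower Gngt2, the gene next to Abi3, in Abi3-/- mice. Genotype here thus means deletion of the locus and not loss of Abi3 alone. By the study's methods, all mice were also heterozygous for a strain variant of Trem2, and the dissociation was designed to enrich glial cells. Each mouse gave 1 library, so a difference between mice and one between libraries cannot be told apart. Abi3 is not among the panel genes, so the genotype labels could not be checked by its reads.

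The ligands of this family are made as membrane proteins, and some are cleaved and released. Tnfsf8 (CD30 ligand) binds CD30, encoded by Tnfrsf8, and is best known on activated T cells and other immune cells. Tnfsf13 (APRIL) and Tnfsf13b (BAFF) are survival factors for B cells and plasma cells, made mainly by myeloid cells. They share the receptors TACI (Tnfrsf13b) and BCMA (Tnfrsf17), and only BAFF binds the BAFF receptor (Tnfrsf13c). Microglia are the resident macrophages of the brain. Near amyloid plaques they take up a disease-associated state in which Apoe, a lipid carrier, and Cst7, an inhibitor of lysosomal proteases, are raised.

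RefSeq places Tnfsf8 at chr4:63831202-63861508, Tnfsf13 at chr11:69682577-69685554 and Tnfsf13b at chr8:10006229-10036000 on GRCm38.p6, the assembly of the mm10 build that the submitters name. Tnfsf8 and Tnfsf13b overlap no other annotated gene. Tnfsf13 lies within the read-through gene Tnfsfm13 and overlaps the antisense gene Tnfsf13os, and the position of the panel's primers is not given in the sources used here, so a read counted as Tnfsf13 may come from a transcript that also holds exons of the neighbouring ligand. The start regions of the 3 genes are printed because 2 microglial clusters, 0 and 5, had Fosb and Jun, subunits of the AP-1 factor, among their 10 leading genes. Each RefSeq window has 250 bases before and 50 after a transcript start. That start is the 5′ end of the gene for Tnfsf13, but it lies 224 bases inside the annotated gene for Tnfsf8 and 238 bases inside it for Tnfsf13b, so most of the bases before it belong to the gene in both. Capitals mark a match to the AP-1 heptamer TGAGTCA or its reverse complement TGACTCA. The windows lie at chr4:63861235-63861534 (minus strand), chr11:69685505-69685804 (minus strand) and chr8:10006217-10006516 (plus strand, the upstream one of 2 windows given).
Tnfsf8: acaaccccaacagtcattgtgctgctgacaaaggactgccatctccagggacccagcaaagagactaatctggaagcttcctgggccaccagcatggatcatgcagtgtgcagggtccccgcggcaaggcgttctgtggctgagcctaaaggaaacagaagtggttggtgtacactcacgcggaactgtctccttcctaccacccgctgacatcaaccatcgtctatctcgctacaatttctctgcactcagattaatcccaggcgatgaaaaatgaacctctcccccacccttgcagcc
Tnfsf13: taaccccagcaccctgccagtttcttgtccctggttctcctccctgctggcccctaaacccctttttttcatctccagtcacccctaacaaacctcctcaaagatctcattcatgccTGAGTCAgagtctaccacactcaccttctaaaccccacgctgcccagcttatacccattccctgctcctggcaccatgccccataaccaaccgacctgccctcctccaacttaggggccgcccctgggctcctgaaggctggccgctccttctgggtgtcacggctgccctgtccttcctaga
Tnfsf13b: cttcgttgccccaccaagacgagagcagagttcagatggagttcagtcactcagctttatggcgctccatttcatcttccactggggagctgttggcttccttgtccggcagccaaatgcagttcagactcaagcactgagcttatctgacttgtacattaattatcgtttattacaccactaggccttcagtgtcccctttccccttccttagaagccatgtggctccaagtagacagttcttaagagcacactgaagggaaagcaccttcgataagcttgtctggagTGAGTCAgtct
The Tnfsf8 window held 0 matches, the Tnfsf13 window 1 at base 118 and the Tnfsf13b window 1 at base 290, and the heptamer was present in 5.20% of 32851 such windows (1709 windows). A match of letters is a description of the window and not of binding.

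The kept reads ranged from 61058416 to 102612276 per library, with a median of 19647.5 to 24283 reads per cell, and pairs of libraries shared 6 to 18 cell barcodes. The values are reads and not molecules. A cell with any read of a ligand gene had 10 or more of them in every library, and the median was 52.5 to 82 reads. The tables were deposited after error correction, which can set such a minimum, and genes other than the ligands also had one (6 or more reads of Apoe, 13 or more of Cst7 and 17 or more of Trem2). Levels are given as RPM, the reads of a gene per 1000000 reads of all panel genes in a class of cells of 1 mouse. The 3 genes are amplified by different primers, so no level is compared between genes. Intervals and limits cover counting error only. Where 0 cells had a read, the limit given is 3 cells of the total, and it bounds cells with a read and not cells that express the gene. In all microglia, 12 of 14 microglial markers had a read in most of the cells in every state, while 0 of 15 T cell markers did and their summed level was 68.7 to 122.5 RPM per mouse. Of 11 macrophage or monocyte markers 1 did, Lyz2, and their summed level was 6995 to 12686 RPM. The cells with no read of Apoe or Cst7 (Apoe-Cst7-) numbered 5724, those with Cst7 alone (Apoe-Cst7+) 1106, those with Apoe alone (Apoe+Cst7-) 2601 and those with both (Apoe+Cst7+) 3217. Their median depths were 18697, 21776, 21132 and 29409 reads per cell. For this reason each cell was also thinned to 12249 reads. A cell with a ligand read had 10 or more of them, so thinning leaves most such cells positive and does not even out detection. Whether depth had a part in the shares was not tested.

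The first question was which cells carried each ligand. Tnfsf8 was read in microglia and in T cell-like cells, Tnfsf13 above all in macrophage or monocyte-like cells, and Tnfsf13b in microglia of every state. Tnfsf13 was also read in a class called ependymal or astrocyte-like, a provisional name that rests on few markers. B cell-like cells held 0 reads of any of the 3 ligands, and they carried receptor genes. Classes other than microglia came from clusters formed without the 3 ligand genes, and their levels are a description with no test.

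In T cell-like cells, where 13 of 15 T cell markers were read in most of the cells, the level of Tnfsf8 was 234 and 719 RPM in Abi3+/+ mice 1 and 2 and 710 and 712 RPM in Abi3-/- mice 1 and 2, with a mean of 594 ± 240 (SD, n = 4). It was low in Abi3+/+ mouse 1 alone. A read was present in 48 of 322 of these cells (14.9%, 95% exact binomial interval 11.2 to 19.3), and among the 297 without a Trem2 read in 44 (14.8%). The share was 24 of 217 cells (11.1%) with a read of Cd8a, the co-receptor of cytotoxic T cells, and 24 of 105 (22.9%) without one. In macrophage or monocyte-like cells Tnfsf8 had a mean level of 147 ± 53.4 RPM, with a read in 12 of 175 cells (6.86%). It was read in 2 of 114 neutrophil-like cells (1.75%), 1 of 134 ependymal or astrocyte-like cells (0.746%) and 0 of 53 B cell-like cells, which allows a share with a read of up to 5.66%. These 3 classes had median depths of 28004.5, 12394.5 and 15287 reads, so T cell-like cells, at a median of 16783, were not the deepest of the classes. Ordered by mean level, T cell-like cells were followed by the 4 microglial states at 296 to 401 RPM. A microglial cluster led by MHC class II genes lay among the states, at 398 RPM (0 to 890 over mice). Below them came a cluster of 68 cells that met no naming rule (227 RPM), the ependymal or astrocyte-like class and then the macrophages. The ranges over mice of neighbours in this order overlapped, although every mouse of the Apoe+Cst7+ state lay above the highest macrophage value of 210 RPM. The mean of the ependymal or astrocyte-like class (219 RPM) rests on the 1 positive cell.

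Tnfsf13 had its highest mean level in the macrophage or monocyte-like cells, whose leading genes included MHC class II genes, Chil3, Clec10a and Ccr2. In these cells 4 of 11 macrophage or monocyte markers and 6 of 14 microglial markers were read in most of the cells. Its level there was 1058 and 1790 RPM in the Abi3+/+ mice and 965 and 2027 RPM in the Abi3-/- mice, a mean of 1460 ± 528 (SD, n = 4). Every one of these values lay above every value of the 4 microglial states, of which the highest was 463 RPM, and above the highest value of a microglial cluster led by MHC class II genes, 502 RPM. A read was present in 81 of 175 cells (46.3%, interval 38.7 to 53.97), and among the 83 of them without a Trem2 read in 35 (42.2%), against 10.6% of all microglia. Beside this the same class had a median of 34218 reads per cell against 21207.5 over all kept cells. Thinned to 1 depth, the mean share was 47.1 ± 7.37% in macrophages and 11.5 ± 1.75% in microglia. The limit of thinning given above applies to these shares. Ependymal or astrocyte-like cells, led by F5, Thbd and Fn1, also held Tnfsf13, at 539, 2046, 979 and 570 RPM in the order above, with a read in 23 of 134 cells (17.2%). All 23 were among the 115 cells without a Trem2 read. Only 3 of 7 markers of that class (F5, Mgst1, Vegfa, Ncam1, Lmna, Tgfb3 and Thbd) were read in most of its cells, so its name is provisional. The study left some of its own clusters without a cell type because the panel held few markers for them. Tnfsf13 was read in 1 of 322 T cell-like cells (0.311%), 0 of 114 neutrophil-like cells, which allows up to 2.63%, and 0 of 53 B cell-like cells.

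Tnfsf13b was read in 4492 of 12648 microglia (35.5%, interval 34.7 to 36.4), and its level over all microglia was 812 and 1128 RPM in the Abi3+/+ mice and 992 and 1199 RPM in the Abi3-/- mice. In macrophage or monocyte-like cells it was 441, 269, 756 and 379 RPM, with a read in 36 of 175 cells (20.6%), and in each mouse this lay below the value of its microglia. A group of 292 microglia that formed a cluster of their own, led by the MHC class II genes Cd74, H2-Aa and H2-Ab1 and kept apart from the states, had 970 to 1427 RPM and a read in 41.4% of cells. Neutrophil-like cells had a read in 13 of 114 (11.4%), of which 12 were among the 102 without a Trem2 read. T cell-like cells had a read in 8 of 322 (2.48%), ependymal or astrocyte-like cells in 1 of 134 and B cell-like cells in 0 of 53.

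**Figure D1:**
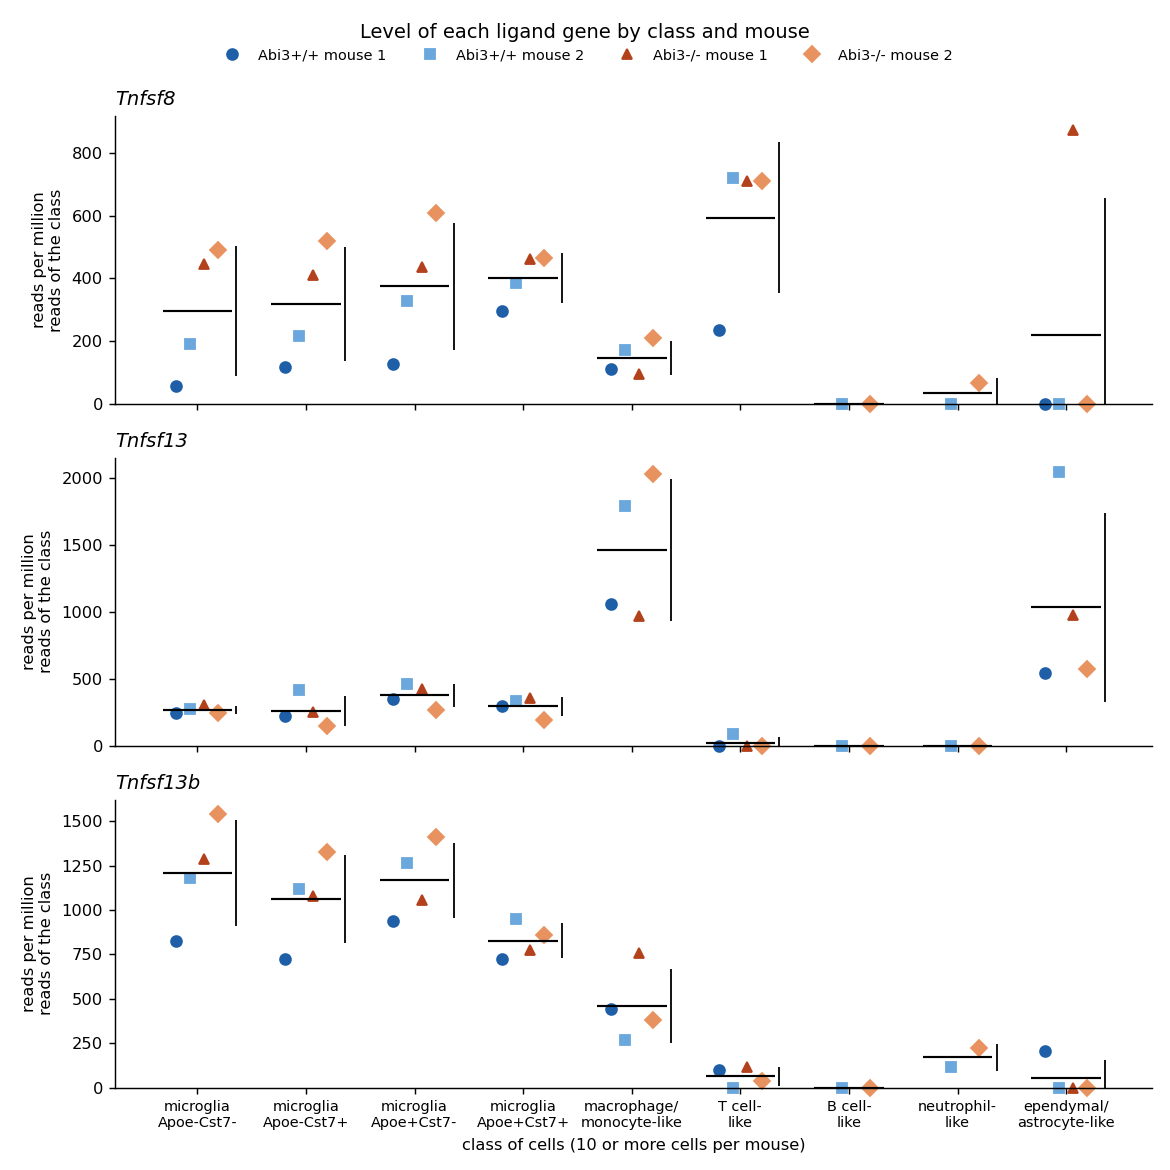
Level of Tnfsf8, Tnfsf13 and Tnfsf13b in RPM (vertical axes, linear, from 0) in 4 microglial states and 5 other classes, with 1 point per mouse that had 10 or more cells of the class, a horizontal bar at the mean and a vertical line of ± 1 SD cut off at 0. Tnfsf13 in macrophage or monocyte-like cells lay at 965 to 2027 RPM, above every microglial value, while the single high Tnfsf8 point of the ependymal or astrocyte-like class came from 1 of 10 cells.

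The receptors were laid out differently. Tnfrsf13b (TACI) was read in 36 of 53 B cell-like cells (67.9%) but also in 50.1% of microglia and 52.6% of macrophage or monocyte-like cells, against 13 of 322 T cell-like cells (4.04%). Tnfrsf13c (BAFF receptor) was nearly restricted to the B cell-like class, with a read in 26 of 53 cells (49.1%) and in 4 of 12648 microglia. Tnfrsf17 (BCMA), a receptor of plasma cells, was read in 2.08% of microglia and 0 of 53 B cell-like cells. Tnfrsf8 (CD30) was rare in all classes, at 0.300% of microglia, 3 of 322 T cell-like cells and 0 of 53 B cell-like cells. Other ligands of the family followed cell type as well. T cell-like cells held Fasl, the death ligand of cytotoxic cells, in 63.98% and Tnfsf10 (TRAIL) in 37.6% of cells. Ltb (lymphotoxin beta) was read in 54.2% of them in Abi3+/+ mouse 1 and in 54.6 and 51.4% in the Abi3-/- mice, but in 6.17% in Abi3+/+ mouse 2, where 0 of 2942 microglia had an Ltb read, and neutrophil-like cells held Tnfsf14 (LIGHT) in 36.8%. In microglia, Tnf was read in 21.4% of cells and the TNF receptor gene Tnfrsf1b in 63.9%.

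**Figure D2:**
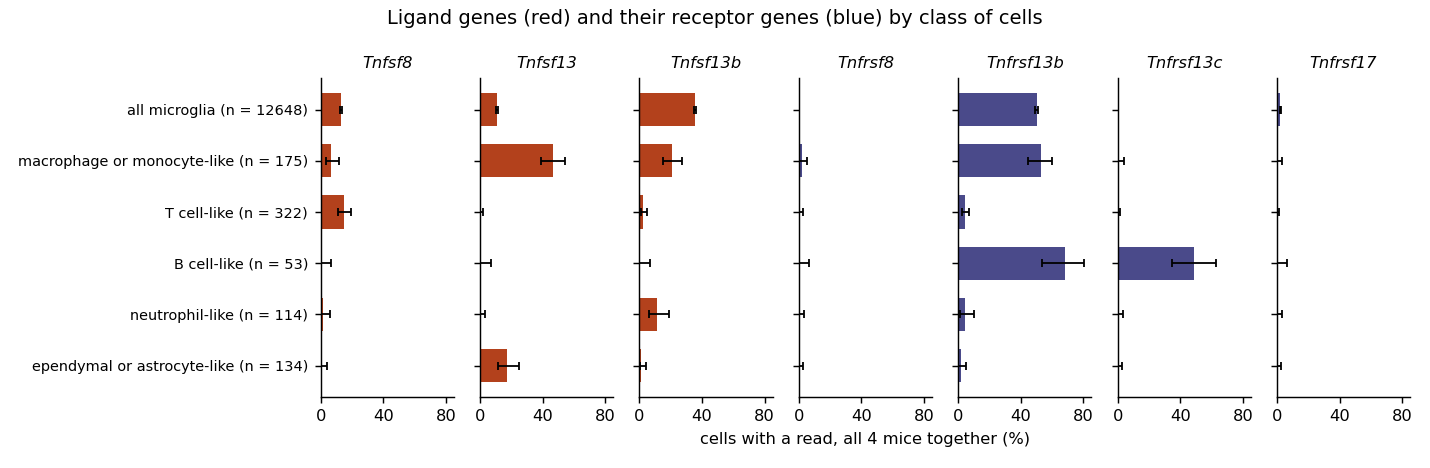
Share of cells with a read, over all 4 mice together (bars, horizontal axes in percent from 0), of the 3 ligand genes in red and of their 4 receptor genes in blue, in 6 classes of cells with the number of cells given, and the 95% exact binomial interval as black lines. B cell-like cells have 0 reads of the ligands and hold Tnfrsf13b in 67.9% and Tnfrsf13c in 49.1% of cells.

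Next, the microglial states were compared within each mouse. Tnfsf8 and Tnfsf13 were higher in Apoe+Cst7+ than in Apoe-Cst7- microglia, relative to the other panel genes, and Tnfsf13b did not pass the test. For Tnfsf8, the Apoe-Cst7- level was 56.4 and 191 RPM in Abi3+/+ mice 1 and 2 and 446 and 490 RPM in Abi3-/- mice 1 and 2, and the Apoe+Cst7+ level was 294, 384, 462 and 464 RPM in the same order. The Apoe+Cst7+ level was thus 5.22 and 2.02 times the Apoe-Cst7- level in mice with Abi3, against 1.04 and 0.946 times without it. Over all 4 mice, with the mouse as a block, the log2 difference was 1.41 ± 0.33 (SE, adjusted p = 0.00315, edgeR quasi-likelihood test with TMM scaling, which centres the fold changes of the panel genes). In this comparison 149 of 284 genes tested passed an adjusted p of 0.05 (52.5%), 74 of them higher and 75 lower, so a pass was common in the panel. Scaled by library size alone, without TMM, the median over all genes moved from -0.07 to -0.60 and the split was 45 higher and 127 lower. Tnfsf8 then stood 0.86 higher (adjusted p = 0.0322), and it passed in all 18 alternatives that were run.

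The share of microglia with a Tnfsf8 read was 1.78, 5.80, 14.9 and 16.2% in the Apoe-Cst7- state and 16.4, 18.1, 20.7 and 24.3% in the Apoe+Cst7+ state, in the order Abi3+/+ mice 1 and 2, then Abi3-/- mice 1 and 2. It was higher in the Apoe+Cst7+ state in 4 of 4 mice, and thinned to 1 depth it was 1.81, 5.86, 15.4 and 16.8% against 16.9, 18.6, 21.1 and 25.5%. In Abi3-/- mouse 2 the share went against the RPM, so no order of the states is read for it. Cells with a Tnfsf8 read had a median of 53.5 to 76 reads of it in every state and mouse. In RPM, the intermediate states of both Abi3+/+ mice lay between the Apoe-Cst7- and Apoe+Cst7+ levels, and in the Abi3-/- mice they lay below or above both. Apoe-Cst7+ microglia had 118, 218, 410 and 520 RPM and Apoe+Cst7- microglia 126, 328, 438 and 608 RPM. Neither passed against the Apoe-Cst7- state, with log2 differences of 0.33 (adjusted p = 0.526) and 0.49 (adjusted p = 0.430). Between the states that share Apoe, Apoe+Cst7+ was 0.91 ± 0.32 higher than Apoe+Cst7- (adjusted p = 0.0391), where 116 of 284 genes passed (40.8%). This pass was lost in 11 of 18 alternatives, among them the omission of Abi3+/+ mouse 1 (0.45, adjusted p = 0.189), of Abi3+/+ mouse 2 (0.94, adjusted p = 0.136) or of Abi3-/- mouse 2 (1.04, adjusted p = 0.0647).

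Tnfsf13 had 242, 275, 304 and 242 RPM in the Apoe-Cst7- state and 298, 333, 353 and 194 RPM in the Apoe+Cst7+ state, so it was higher in 3 of 4 mice by this scale and lower in Abi3-/- mouse 2. Its log2 difference was 0.65 ± 0.17 (SE, adjusted p = 0.00557). Without TMM it was 0.11 (adjusted p = 0.622), so the pass of Tnfsf13 states a rise relative to the other panel genes and not in its share of reads, and it was also lost without Abi3+/+ mouse 1 (0.53, adjusted p = 0.0758). The summed macrophage or monocyte markers moved with the same states, from 1908 to 7123 RPM over mice in Apoe-Cst7- to 16941 to 22889 RPM in Apoe+Cst7+ microglia, without overlap. Most of this was Lyz2, a lysozyme gene of myeloid cells, at 1625 to 6657 and 15794 to 22018 RPM, and most of the rest was Ifitm3. Fn1 was also higher without overlap, at 0 to 5.18 RPM in Apoe-Cst7- and 12.2 to 71.7 RPM in Apoe+Cst7+ microglia. In Apoe+Cst7+ microglia F13a1, Kcne3, Cd163 and Flt3 had 0 reads. Clec10a had 0 to 7.05, Chil3 0 to 3.94 and Itga4 5.28 to 29.1 RPM there. Ccr2 had 24.3 to 63.7 RPM in Apoe-Cst7- and 4.04 to 26.5 RPM in Apoe+Cst7+ microglia. In the macrophage or monocyte-like cells Ccr2 had 4231 to 14770 RPM. Cells with a Tnfsf13 read made up 8.44, 8.61, 10.3 and 8.03% against 14.9, 14.1, 15.8 and 11.3%. Thinned, these were 9.01, 8.54, 10.7 and 8.96% against 15.7, 14.6, 16.1 and 11.7%. In Abi3-/- mouse 2 the share went against the RPM, and no order of the states is read for it. In the Apoe+Cst7- state the level was 348, 463, 426 and 265 RPM.

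Tnfsf13b was lower in RPM in all 4 mice, with 823, 1181, 1290 and 1543 in the Apoe-Cst7- state and 724, 951, 774 and 860 in the Apoe+Cst7+ state. Its log2 difference was 0.03 ± 0.12 (adjusted p = 0.869) with TMM and -0.52 (adjusted p = 0.00145) without, so its direction depends on the scaling. Cells with a read made up 25.3, 32.8, 40.4 and 44.6% in the Apoe-Cst7- state and 31.6, 35.7, 33.9 and 40.3% in the Apoe+Cst7+ state. In the Abi3+/+ mice the share went against the RPM, and no order of the states is read from it there.

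**Figure D3:**
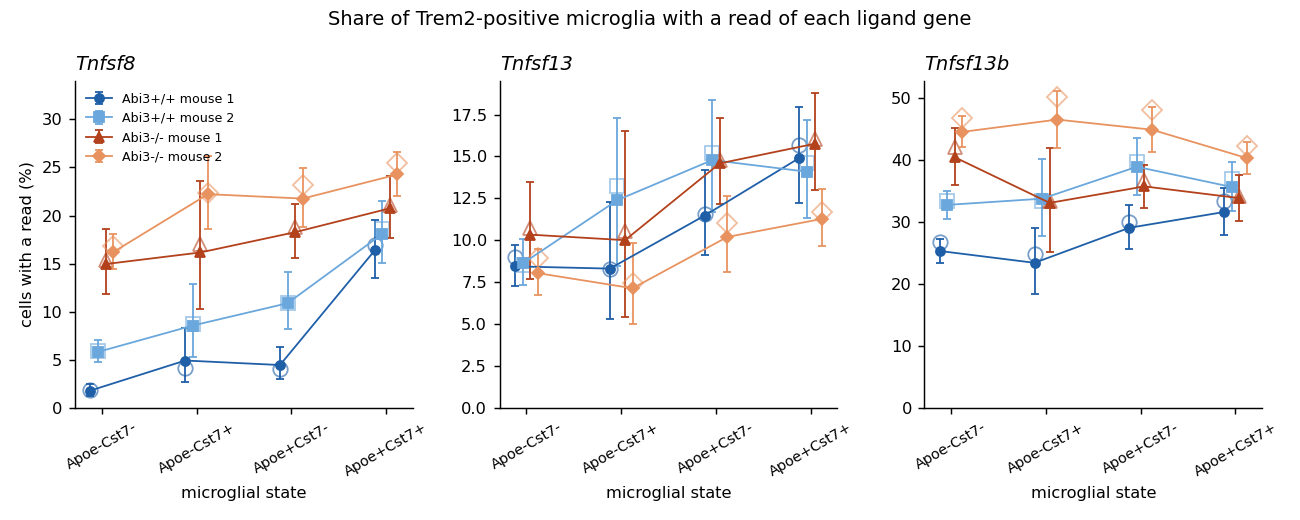
Share of Trem2-positive microglia with a read of each ligand gene (vertical axes in percent, from 0, each on its own scale) in 4 states, with 1 line per mouse, filled points at full depth with 95% exact binomial intervals and open points after thinning each cell to 12249 reads. The lines of Tnfsf8 lie apart by genotype, with 1.78 and 5.80% against 14.9 and 16.2% in Apoe-Cst7- microglia, and lie closest in Apoe+Cst7+ microglia.

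Among the other genes of the pathway in the same comparison, 25 genes in 4 lists, 20 were tested, of which 2 passed as higher and 6 as lower, beside 74 higher and 75 lower of all 284 genes tested (52.5%). Passes were thus no more common in the lists than in the panel. Of the 4 receptors of the ligands, 3 were tested and 0 rose, while Tnfrsf13b fell by 0.73 on the log2 scale (adjusted p = 0.00029). The median of these receptors was -0.39, beside -0.07 over all genes tested. Of 6 other ligands of the panel, 4 were tested, 0 rose and 2 fell, with a median of -0.97. Tnf was among them with -0.90 (adjusted p = 0.00129), and the other was Tnfsf14, read in only 17 of 12648 microglia. Of 8 other TNF receptors, 6 were tested and 1 fell, Tnfrsf1b with -0.81 (adjusted p = 8.04e-05), and their median was -0.76. Of 7 genes of NF-kappaB signaling and survival, all tested, 2 rose and 2 fell. Those higher were the anti-apoptotic Bcl2 (1.27, adjusted p = 0.00218) and its relative Bcl2a1a (1.04, adjusted p = 8.82e-06), and those lower were Birc3, an inhibitor of apoptosis (-0.59, adjusted p = 0.00419), and the NF-kappaB subunit Nfkb1 (-0.31, adjusted p = 0.0334). Without TMM the counts were 0 up and 1 down, 0 and 2, 0 and 1, and 2 and 4 for these lists, beside 45 up and 127 down over all genes.

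The last question was whether Abi3 genotype went with the level of each ligand within a state. Both Abi3-/- mice had more Tnfsf8 than both Abi3+/+ mice in all 4 states, but no test of genotype over mice passed with edgeR. In Apoe-Cst7- microglia the means were 468 ± 31.1 RPM in Abi3-/- and 123 ± 94.9 RPM in Abi3+/+ (SD, n = 2 each), a ratio of 3.79. The size rests on which Abi3+/+ mouse is used: the edgeR log2 difference was 1.44 ± 0.40 without Abi3+/+ mouse 1 (adjusted p = 0.398) and 3.08 ± 0.45 without Abi3+/+ mouse 2 (adjusted p = 0.0835). In Apoe-Cst7+ microglia they were 465 ± 77.6 against 168 ± 70.1, in Apoe+Cst7- microglia 523 ± 120.0 against 227 ± 143 and in Apoe+Cst7+ microglia 463 ± 1.33 against 339 ± 63.4 RPM. Of all genes tested, both Abi3-/- mice stood above both Abi3+/+ mice in 12.8% in the Apoe-Cst7- state, 13.4% in Apoe-Cst7+, 11.9% in Apoe+Cst7- and 16.3% in Apoe+Cst7+. Over all microglia this held for 10.9% of 321 genes, and Tnfsf8 was among them with 447 and 500 RPM in Abi3-/- and 133 and 265 RPM in Abi3+/+. Both Abi3+/+ mice differed from each other by more than the Abi3-/- mice did in each of these sets except Apoe-Cst7+.

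The edgeR log2 difference of Tnfsf8, Abi3-/- over Abi3+/+, was 1.45 ± 0.39 in all microglia (unadjusted p = 0.0219, adjusted p = 0.526), 2.03 ± 0.63 in Apoe-Cst7- (adjusted p = 0.377), 1.53 ± 0.44 in Apoe-Cst7+ (adjusted p = 0.667), 1.36 ± 0.51 in Apoe+Cst7- (adjusted p = 0.725) and 0.41 ± 0.22 in Apoe+Cst7+ (adjusted p = 0.822). In these 5 comparisons 0 genes passed (0.0%), with 25, 32, 16, 14 and 11 genes at an unadjusted p under 0.05. DESeq2 passed 8, 10, 11, 2 and 0 genes, and Tnfsf8 was one of them in all microglia (1.43, adjusted p = 0.0180), Apoe-Cst7- (2.003, adjusted p = 0.0400) and Apoe-Cst7+ (1.53, adjusted p = 0.0465). Over 18 alternatives in the Apoe-Cst7- state the difference ran from 0.39 to 3.08, with adjusted p from 0.0400 to 0.648. The share of cells with a read differed by 11.8 percentage points in that state, and the exact permutation test over mice gave p = 0.333, 2-sided, which is the smallest p that 2 against 2 mice allow.

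The genotypes were also laid side by side within clusters. Among 9 microglia-like clusters with 20 or more cells in each mouse, both Abi3-/- mice lay above both Abi3+/+ mice for Tnfsf8 in 8, beside 10.6% of all pairs of a gene and a cluster (266 of 2502). In cluster 1, led by Slc25a37, the level was 501 and 629 RPM in Abi3-/- and 59.2 and 237 RPM in Abi3+/+. In cluster 2, led by the chemokine genes Ccl4 and Ccl3 and by Tnf, it was 502 and 561 RPM against 266 and 282 RPM. The gap was narrow in cluster 3, with 450 and 492 RPM against 265 and 435 RPM, and in cluster 10, with 313 and 488 RPM against 302 and 75.6 RPM. The exception was cluster 7, led by Cst7, Apoe and Il1rn, with 399 and 241 RPM against 203 and 264 RPM. The clusters share mice and libraries and are not independent of each other.

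Tnfsf13b passed no test of genotype with edgeR, and over the alternatives in all microglia, Apoe-Cst7- and Apoe+Cst7+ its smallest adjusted p was 0.395. In the Apoe-Cst7- state the Abi3-/- mice had 1290 and 1543 RPM and the Abi3+/+ mice 823 and 1181 RPM, with no overlap, and the log2 difference was 0.59 ± 0.21 (unadjusted p = 0.0473, adjusted p = 0.421). In the other states the genotypes overlapped, and in Apoe+Cst7+ microglia the means were 817 ± 60.2 and 837 ± 160.4 RPM. Within clusters, both Abi3-/- mice lay above for Tnfsf13b in 2 of 9, beside 10.6% above of all pairs of a gene and a cluster. These were clusters 0 and 5, in which 10.9 and 8.92% of all genes with a read lay above. A link to the leading genes of these clusters was not tested. In cluster 0 (Junb, Maf, Fosb) the levels were 1375 and 1599 RPM against 841 and 933 RPM, and in cluster 5 (Fosb, Egr1, Dusp1) 2381 and 1518 RPM against 772 and 1056 RPM. For Tnfsf13 the genotypes overlapped in every state, with log2 differences from -0.62 to 0.18, and both Abi3-/- mice lay above in 0 and below in 3 of the 9 clusters, beside 22.8% below of all pairs of a gene and a cluster.

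**Figure D4:**
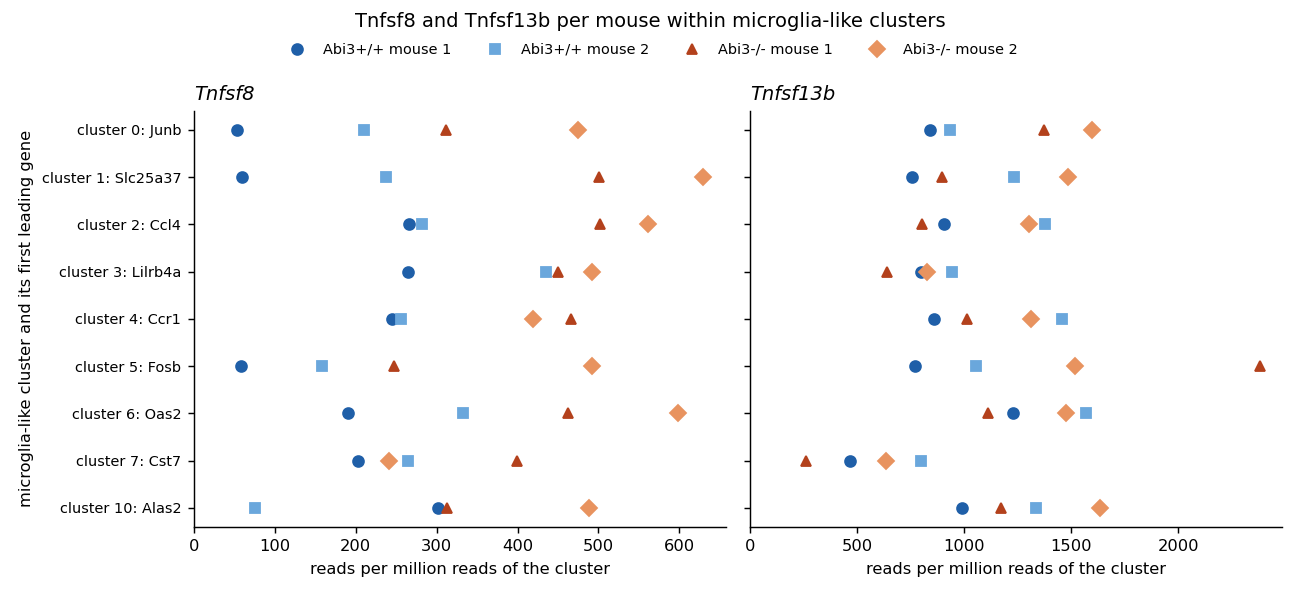
Level of Tnfsf8 and Tnfsf13b (horizontal axes, RPM within the cluster, from 0) in 9 microglia-like clusters formed without these genes, each named by its first leading gene, with 1 point per mouse. For Tnfsf8 the Abi3-/- points lie to the right of the Abi3+/+ points in 8 clusters, and for Tnfsf13b in clusters 0 and 5.

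A test of the interaction asked whether the step from Apoe-Cst7- to Apoe+Cst7+ differed between the genotypes. The log2 step of Abi3-/- minus that of Abi3+/+ was -1.78 ± 0.41 for Tnfsf8 (SE, adjusted p = 0.0286), -0.60 ± 0.14 for Tnfsf13b (adjusted p = 0.0306) and -0.40 ± 0.30 for Tnfsf13 (adjusted p = 0.512). In RPM the step of Tnfsf13b was downward in all 4 mice and larger in the Abi3-/- mice. The share of cells with a Tnfsf13b read went up in the Abi3+/+ mice and down in the Abi3-/- mice. In this test 29 of 284 genes passed (10.2%), 20 with a positive and 9 with a negative difference, around a median of 0.23, and without TMM the split was 4 and 9. The pass of Tnfsf8 was lost without Abi3+/+ mouse 1 (-1.12, adjusted p = 0.286), without Abi3-/- mouse 1 (-1.70, adjusted p = 0.385) and without Abi3-/- mouse 2 (-1.93, adjusted p = 0.104), and that of Tnfsf13b was lost without any 1 of the 4 mice. Each of these fits leaves 1 mouse in a genotype, which is assumed to vary like the others, and without either Abi3-/- mouse the size for Tnfsf8 was close to that of all 4 mice. The state shares moved with genotype as well: Apoe-Cst7- microglia were 56.9 and 56.9% of the microglia in Abi3+/+ and 22.9 and 37.8% in Abi3-/-, and the part of these shares in the results was not tested.

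**Figure D5:**
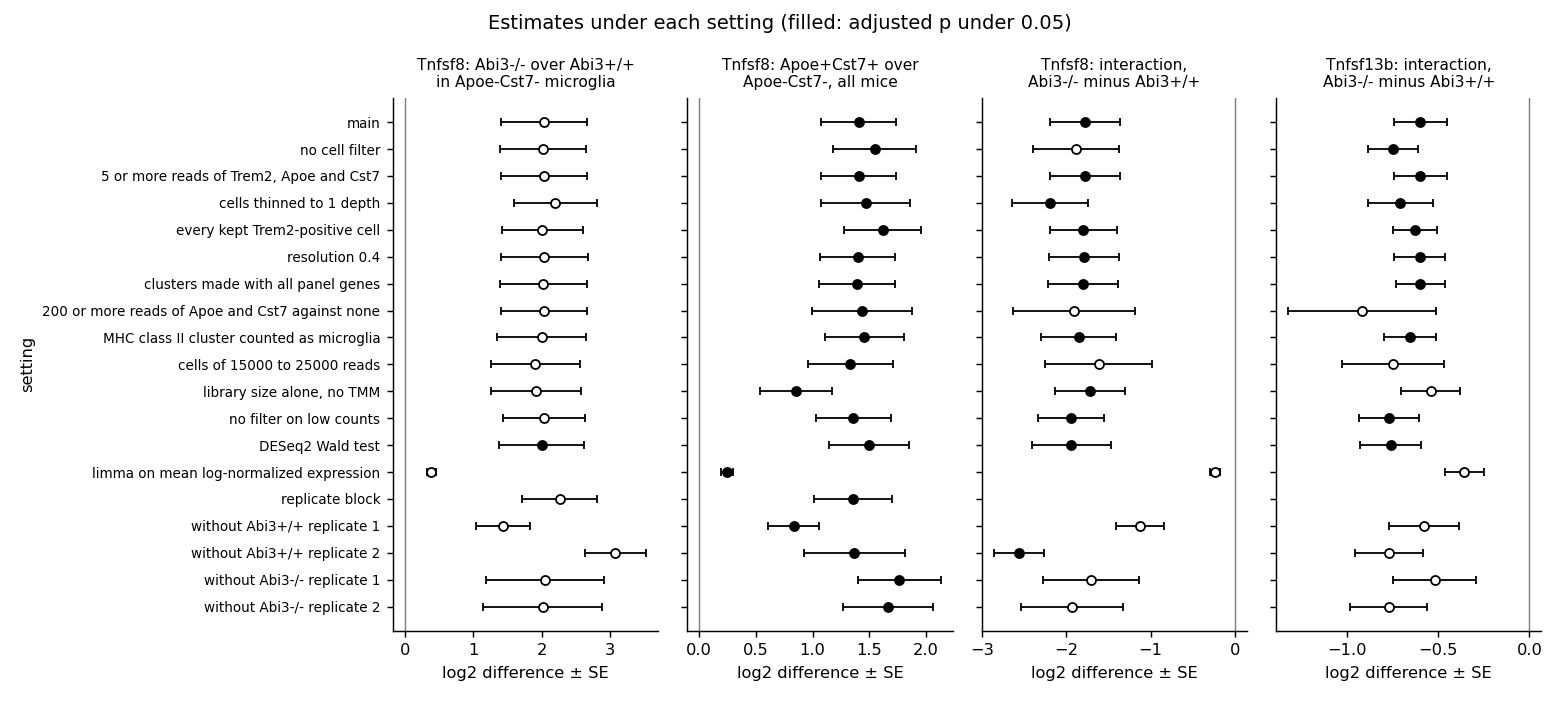
Log2 difference with its SE (horizontal axes) of 4 tests under the main setting and each alternative (vertical axis), with filled points at an adjusted p under 0.05 and open points above it, and with no replicate block for the interactions. The limma differences are on the scale of mean log-normalized expression and are smaller by construction. The interaction of Tnfsf8 ran from -2.56 to -0.24 and stayed below 0 in every setting run, and its genotype difference in Apoe-Cst7- microglia passed with DESeq2 alone.

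Finally, the co-occurrence of the ligands was described in single microglia. No ligand was read in 63.6 and 54.3% of microglia of the Abi3+/+ mice and in 46.3 and 41.6% of those of the Abi3-/- mice, and all 3 were read in 12, 14, 24 and 43 cells. A Tnfsf13b read was present in 37.4, 40.2, 40.4 and 45.9% of the cells with a Tnfsf8 read and in 26.4, 33.8, 35.1 and 42.8% of those without one, so over all microglia it was more frequent beside Tnfsf8 in 4 of 4 mice. After thinning these shares were 40.5, 40.6, 40.6 and 47.3% against 27.8, 34.5, 36.1 and 45.5%. Thinning leaves most cells with a read positive, so the part of depth in this order was not tested. The same order held in 4 of 4 mice within the Apoe+Cst7+ state and in 3 of 4 within the Apoe-Cst7- state, where Abi3-/- mouse 2 had 42.9% with and 44.9% without a Tnfsf8 read (43.98 and 47.4% thinned). The other pairs had the same order over all microglia, with Tnfsf13b in 34.7, 39.8, 37.9 and 48.97% of cells with and 26.1, 33.7, 35.7 and 42.9% without a Tnfsf13 read, and Tnfsf8 in 6.39, 11.5, 20.6 and 21.3% with and 4.87, 8.93, 17.8 and 20.5% without one, so this was not particular to Tnfsf8 and Tnfsf13b. Over the 16 sums of 4 states by 4 mice, which share libraries, the log2 levels most like that of Tnfsf8 were those of Gapdh (Pearson r = 0.79), Cd22 (0.78), C3 (0.76), Pdcd1 (0.76) and Lyz2 (0.73) among 283 genes. Those most like Tnfsf13b were Cd34 (0.89), Ptprc (0.87), Itgb2 (0.78), Fam65b (0.77) and Cd48 (0.70). Those most like Tnfsf13 were Lamp1 (0.73), Mbp (0.68), Lat2 (0.64), Fcer1g (0.58) and Cd79b (0.56). Among the ligands themselves r was 0.49 for Tnfsf8 and Tnfsf13b, -0.04 for Tnfsf8 and Tnfsf13 and -0.02 for Tnfsf13 and Tnfsf13b.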

How the data were processed

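Single cells of 4 mice were profiled with the BD Rhapsody Mouse Immune Response Panel, with 1 library per mouse. The authors ran the vendor's targeted pipeline at default settings (version not given in the sources used here; the submitters' processing notes name mm10) and deposited raw read counts (a gene by cell table for each library) with distribution-based error correction applied, and with no cell filter or normalization.

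Here cells with 40 or more genes and no more reads than the upper limit of the study's methods were kept. They were clustered in Seurat 5.3.0 (R 4.3.3) on 394 genes, without the 3 ligand genes, with 10 principal components at resolution 0.8, into 17 clusters. A cluster was named from at least 3 markers among its 10 leading genes or, for the 10 microglia-like clusters, from a mean share of 0.6 of cells over the microglial markers; a microglial cluster with a mean share of 0.5 over MHC class II genes was set apart, a rule known from earlier results. No doublet caller was used. A microglial state needed 1 or more reads of Apoe or Cst7 to be positive. Thinning to 12249 reads left out 1381 cells.

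Reads were summed per mouse and state and tested with edgeR 4.0.16 (quasi-likelihood, TMM, default filter on low counts, Benjamini-Hochberg adjustment over all genes tested, threshold 0.05), and DESeq2 1.42.0 and limma 3.58.1 (on mean log-normalized expression) were alternatives. The mouse was a block between states. Fits by genotype had 2 mice per group, which the series' design text gives as separate animals. The edgeR step was first tested on simulated data. By genotype in all microglia it recovered 24.5% of genes changed by 1 on the log2 scale and 57.1% of those changed by 2. Between states it recovered 56.6 and 66.7%. A gene that did not pass may thus still differ.

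The genes named are the 3 ligands, their receptors, other TNF ligands and receptors, NF-kappaB and survival genes of the panel, and the 5 genes most correlated with each ligand. The ligands and all lists were chosen with earlier results of these data known. Leading genes of clusters, single macrophage or monocyte markers, and Tnfsf8 by Cd8a, were chosen after their values were seen. Sequences and positions are from RefSeq (GRCm38.p6), in which all 3 ligands matched by symbol.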

Additional observations from a re-analysis of the deposited data

Results flagged for a closer look

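Both results listed here are differences between the genotypes in the step from Apoe-Cst7- to Apoe+Cst7+ microglia, tested as an interaction over 16 sums of 4 mice with edgeR. For Tnfsf8 the step was -1.78 on the log2 scale in Abi3-/- relative to Abi3+/+ (adjusted p = 0.0286, and 0.000870 to 0.759 over 17 alternatives). In RPM, Abi3+/+ mice 1 and 2 stepped up by 238 and 193, whereas the values were 15.6 and -26.5 for Abi3-/- mice 1 and 2. For Tnfsf13b it was -0.60 (adjusted p = 0.0306, and 0.000287 to 1 over 17 alternatives). The change in RPM was -99.3 and -230.1 for Abi3+/+ mice 1 and 2, against -516 and -683 for Abi3-/- mice 1 and 2. All 4 mice thus moved the same way on this scale. The share of cells with a Tnfsf13b read changed by 6.30 and 2.90 percentage points in Abi3+/+ and by -6.59 and -4.23 in Abi3-/-. That of Tnfsf8 rose by 14.6 and 12.3 points in Abi3+/+ and by 5.80 and 8.09 in Abi3-/-. The share went against the RPM in both Abi3+/+ mice for Tnfsf13b and in Abi3-/- mouse 2 for Tnfsf8. No order of the states is read for those mice. The pass was kept in 10 of 17 alternatives for Tnfsf8 and in 9 of 17 for Tnfsf13b, and the cause of either difference was not tested.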

How the results depend on the processing

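With TMM replaced by library size alone, the median over all genes moved from 0.02 to -0.17 for genotype in all microglia. The step to Apoe+Cst7+ from Apoe-Cst7- passed for Tnfsf8 in all 18 alternatives (0.25 to 1.77). For Tnfsf13 the pass was kept in 14 of 18 alternatives. The step was 0.41 with a gate of 200 or more reads of Apoe and Cst7 and 0.70 in cells of 15000 to 25000 reads. It was 0.11 without TMM and 0.53 to 0.77 with 1 mouse left out, and the values of these settings did not all pass. For Tnfsf13b it turned to -0.18, -0.12 and -0.52 in the same first 3 settings, -0.025 without the filter on low counts and -0.14 with limma, and ran from -0.13 to 0.17 with 1 mouse left out. The interaction of Tnfsf8 no longer passed without the cell filter (-1.89), with the 200-read gate (-1.91), in cells of 15000 to 25000 reads (-1.62) or with limma (-0.24), and ran from -2.56 to -1.12 with 1 mouse left out. That of Tnfsf13b no longer passed with the gate (-0.91), in those cells (-0.75), without TMM (-0.54) or with limma (-0.36), and ran from -0.77 to -0.52. That of Tnfsf13 was 0.059 in cells of 15000 to 25000 reads. The genotype difference of Tnfsf8 passed with DESeq2 alone (1.43, 2.003 and 1.53). For Tnfsf13 it turned to -0.066 without TMM in all microglia (-0.35 to 0.45 with 1 mouse left out), to -0.12 in Apoe-Cst7- (-0.058 to 0.38) and to 0.074 in Apoe+Cst7+ (-0.65 to 0.0050) in cells of 15000 to 25000 reads. For Tnfsf13b in Apoe+Cst7+ it was 0.073 with limma (-0.27 to 0.087). The share with a Tnfsf13 read, Abi3-/- minus Abi3+/+, ran with 1 mouse left out from -1.14 to 3.16 percentage points in all microglia, -0.49 to 1.81 in Apoe-Cst7- and -3.23 to 1.26 in Apoe+Cst7+. Genes passing between states fell to 86 with the gate and 97 in cells of 15000 to 25000 reads. Genes passing the interaction numbered 15 without the cell filter, 19 thinned, 17 with every Trem2-positive cell, 0 with the gate, 17 with the MHC class II cluster, 10 in cells of 15000 to 25000 reads, 13 without TMM, 12 without the low-count filter, 1 with limma and 0 to 20 with 1 mouse left out. Genes passing by genotype in all microglia were 8 with DESeq2 and 0 to 2 with 1 mouse left out. Between Apoe+Cst7+ and Apoe+Cst7-, Tnfsf8 no longer passed thinned (0.92), with the gate (0.58), with the MHC class II cluster (0.90), in cells of 15000 to 25000 reads (0.71), without TMM (0.37) or with limma (0.13), and ran from 0.45 to 1.06 with 1 mouse left out. The causes were not tested. The gate, the depth window, the MHC class II setting and all alternatives of the interaction were added after seeing the data.

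The replicate numbers are shared between the genotypes, but nothing in the labels says that they pair the mice, and the deviations of same-numbered mice correlated at 0.36 over only 2 pairs. With a replicate block the step of Tnfsf8 was 1.36 (adjusted p = 0.00527), that of Tnfsf13 0.65 (adjusted p = 0.0425), the genotype difference of Tnfsf8 1.53 in all microglia (adjusted p = 0.306) and 2.26 in Apoe-Cst7- (adjusted p = 0.395), with 140 genes passing between states and 0 by genotype. The block also ended the pass of Tnfsf8 between Apoe+Cst7+ and Apoe+Cst7- (0.88, adjusted p = 0.0554). The interaction already holds the mouse as a block, so no such fit was made for it.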

Other observations

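Over 39 sums of all classes by mouse with 10 or more cells, which mix cell types and share libraries, the log2 levels most like each ligand differed from those among microglia. Tnfsf8 was most like Il1rl1 (Pearson r = 0.78) and Prdm1 (0.74), a regulator of lymphocyte differentiation, among 372 genes. Tnfsf13 was most like Cxcl16 (0.87), a chemokine of myeloid cells, and Lamp1 (0.82), a lysosomal membrane protein. Tnfsf13b was most like the complement receptor gene C5ar1 (0.94), Havcr2 (0.90) and the integrin gene Itgam (0.87), all expressed by myeloid cells.

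A cluster of 68 cells that met no naming rule, led by Cd38, Vegfa and Ncam1, held 12 of 14 microglial markers in most of its cells and 2 of 7 ependymal or astrocyte markers. It had a read of Tnfsf8 in 9 cells (13.2%), of Tnfsf13 in 4 (5.88%) and of Tnfsf13b in 26 (38.2%).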
